A study of Mus musculus with 4 samples.

Results

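Enzymes that add methyl groups to histones (writers) and enzymes that take them off (erasers) were followed in sorted mouse spermatocytes labelled heterozygous or knockout for *Zfp541*. The members were chosen by symbol: every gene listed whose symbol starts with Kdm, Kmt, Setd (Setdb included), Ehmt, Suv39h, Suv420h, Nsd, Whsc1, Prmt, Carm1, Dot1l or Ash1l. The rule matched 55 of the 24411 genes listed, of which 54 had a mean of at least 1 TPM (a transcript's share of all transcripts in a library, scaled to a fixed total and corrected for its length) over the 4 libraries and were tested. The exception was *Prmt8*, an arginine methyltransferase best known from the brain, which stood between 0.31 and 0.67 TPM in all 4 libraries. One match, *Nsdhl*, encodes a sterol biosynthesis enzyme and no histone methyltransferase. It was kept as a symbol match and is described apart.

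RNA-seq was performed on GFP-positive male germ cells of testes at postnatal day 18, from 2 samples labelled Zfp541+/- (control 1 and control 2) and 2 labelled Zfp541 KO (KO 1 and KO 2). In all 4, the *Rec8* locus carried a knock-in named Rec8-3xFLAG-HA-p2A-GFP, whose GFP was used for the sort. The study's methods describe one control as heterozygous and the other as homozygous for the knock-in, with both KO testes homozygous, and the labels do not say which control is which. The labels give the strain as C57BL/6 mixed with CBA, and the KO allele deletes most exons of *Zfp541*.

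Methylation of histone lysines is read according to the residue. Methylated H3K4 marks promoters and, in spermatocytes, the sites where meiotic recombination starts; H3K9 and H3K27 methylation accompany silent chromatin, H3K36 methylation follows transcribed gene bodies, and H4K20 methylation is tied to chromatin compaction and genome maintenance. SET domain enzymes write most of these marks, DOT1L writes H3K79 without a SET domain, and PRMT enzymes methylate arginines of histones and many other proteins. Erasers fall into the amine oxidases KDM1A and KDM1B and the larger family of Jumonji C demethylases.

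The 2 controls differed more from each other than the libraries labelled KO did. Over all genes tested, the Euclidean distance between controls on the log2(TPM + 1) scale was 153, against 49.2 between KO 1 and KO 2, and the members' median absolute difference was 0.54 between controls and 0.083 between the KO libraries. *Zfp541* itself, a zinc finger gene of meiotic prophase, had 112 TPM in control 1, 72.2 in control 2, 136 in KO 1 and 151 in KO 2, so its level was not lower in the libraries labelled KO. *Rec8*, the knock-in locus, had 7.05 TPM in control 1 against 27.9 in control 2, 27.7 in KO 1 and 19.4 in KO 2. A TPM per gene does not show which exons the reads came from, and the KO label therefore could not be checked here. Summed over a list of leptotene and zygotene markers, the libraries held 4319.8, 7225, 8711 and 8689 TPM in the order control 1, control 2, KO 1, KO 2, and over pachytene markers 9097, 4582, 3575 and 4857. Abundant genes weigh most in such sums: *Tex101* alone had 1354, 3627, 2984 and 2742 TPM, and *Ldhc* 3659, 1819, 768 and 1230. Not every marker followed its sum, as *Spo11* had 95.1, 66.9, 64.2 and 79.6 TPM and *Mybl1* 70.3, 38.3, 81.5 and 98.1. By gene, 12 of 15 leptotene and zygotene markers were above both controls, and 2 of 14 pachytene markers were above and 5 below. Spermatogonial markers summed to 399, 1125, 946 and 734 TPM, with 3 of 12 above both controls and 0 below. Sertoli cell markers summed to 494, 535, 611 and 517 TPM, with 2 of 11 above and 0 below. Over all genes tested, 38.6% were above and 12.1% below. Leydig cell markers summed to 3640.2 TPM in control 1 and 19.4 in control 2, with 399.7 and 618 in the KO libraries; macrophage markers summed to 2550.0, 30.3, 2173 and 1593. None of the 7 Leydig cell markers and 1 of the 8 macrophage markers was higher in both KO libraries than in both controls, against 38.6% of all genes tested. In the sorted bulk, fewer cells of a type and less RNA per cell cannot be told apart. The part of these cell-type differences in the results below was not tested.

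**Figure D1:**
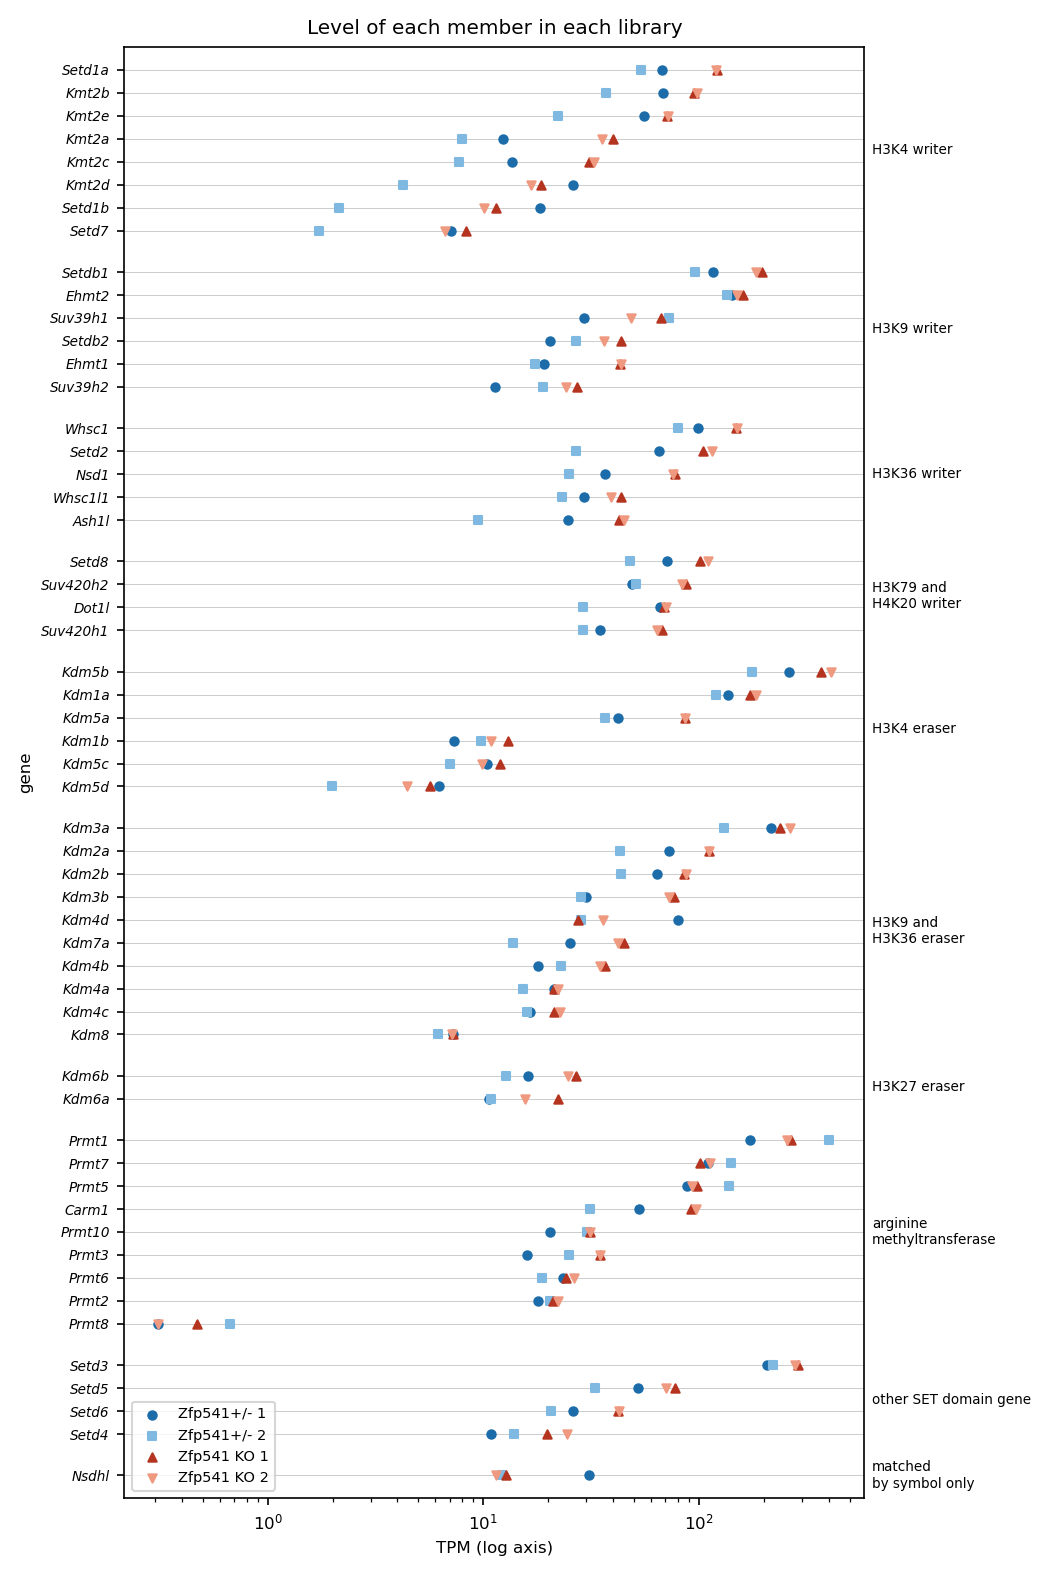
Level of each of the 55 members in each library, in TPM on a log axis, grouped by enzyme class. Circles and squares are the Zfp541+/- libraries, upward and downward triangles those labelled Zfp541 KO; the triangles lie to the right of both controls in 42 members and to the left of both in 0.

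No member passed an FDR of 0.05 with limma, and neither did any other gene (0% of the 14512 tested). At an unadjusted p under 0.05, 24 of the 54 members (44.4%) were higher in the libraries labelled KO, against 10.7% of all genes, and 0 were lower, against 3.73%. Both KO libraries lay above both controls in 42 members (77.8%), against 38.6% of all genes. Both lay below in 0 members, against 12.1%, and the groups overlapped in the other 12. With median-ratio scaling the members above both controls were 28 (51.9%, against 23.1% of all genes), and with quantile normalization 31 (57.4%, against 27.8%). The members' median log2 difference was 0.75, from −0.65 to 1.82. The median over all genes was itself 0.28 above zero, and 44 of the 54 members exceeded that value. In 11 members (20.4%, against 9.12% of all genes) the mean TPM was at least 2 times higher. With 2 samples against 2, an exact two-sided permutation test cannot give a p under 0.33, so these counts are descriptions set beside the same counts over all genes.

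The size of the difference depended on the control. Against control 1 the members' median log2 difference was 0.59 for KO 1 and 0.58 for KO 2, and against control 2 it was 0.96 and 0.90. Control 2 was the lower of the controls in 39 members (72.2%, near the 66.0% of all genes) and the higher in 15. In 19 members (35.2%, against 61.6% of all genes) the gap between the controls was larger than the estimated difference between the genotype labels, and in 8 (14.8%, against 39.8%) the KO mean fell between the controls. Added up, the members took 2956 TPM in control 1, 2658 in control 2, 4166 in KO 1 and 4183 in KO 2.

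**Figure D2:**
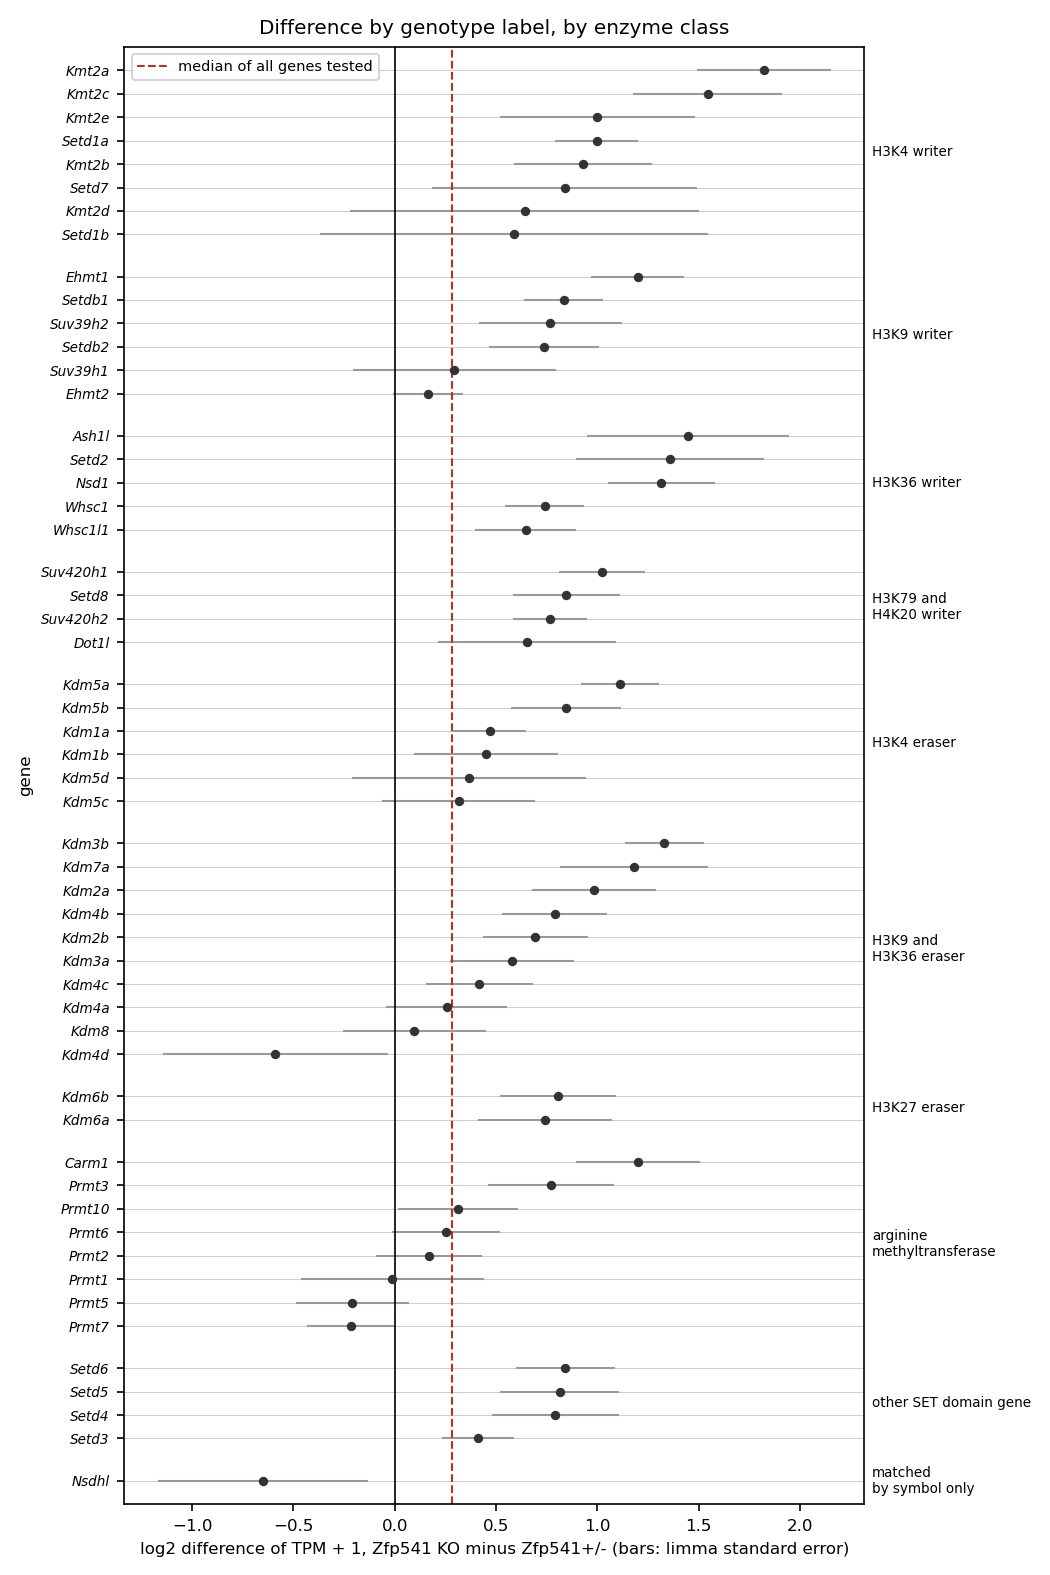
The log2 difference of TPM + 1, libraries labelled Zfp541 KO minus Zfp541+/-, for the 54 members tested, with bars of 1 limma standard error. The solid line is zero and the dashed line the median of all genes tested, 0.28; *Kmt2a* is farthest to the right at 1.82, and *Nsdhl*, *Kdm4d*, *Prmt5*, *Prmt7* and *Prmt1* lie left of zero.

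Start sites of 6 enzymes are printed because they are the 3 highest and the 3 lowest log2 differences among the enzymes with a single RefSeq start window that holds at most 30 annotated exon bases. Each sequence is the 250 bases before the RefSeq transcription start, read 5′ to 3′ on the strand of the gene in GRCm38.p6, with GC boxes (GGGCGG on either strand, overlapping matches counted) in capitals. The 3 highest are *Kmt2a* at chr9:44881290-44881539 on the minus strand, *Kmt2c* at chr5:25498784-25499033 on the minus strand and *Setd2* at chr9:110532347-110532596 on the plus strand. The 3 lowest are *Kdm8* at chr7:125444370-125444619 on the plus strand, *Prmt2* at chr10:76237866-76238115 on the minus strand and *Kdm4a* at chr4:118180044-118180293 on the minus strand.
Kmt2a: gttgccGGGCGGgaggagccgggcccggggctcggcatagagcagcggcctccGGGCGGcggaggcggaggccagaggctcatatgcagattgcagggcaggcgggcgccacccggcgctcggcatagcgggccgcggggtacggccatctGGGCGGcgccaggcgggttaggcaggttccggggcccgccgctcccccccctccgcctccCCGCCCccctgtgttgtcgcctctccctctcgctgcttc
Kmt2c: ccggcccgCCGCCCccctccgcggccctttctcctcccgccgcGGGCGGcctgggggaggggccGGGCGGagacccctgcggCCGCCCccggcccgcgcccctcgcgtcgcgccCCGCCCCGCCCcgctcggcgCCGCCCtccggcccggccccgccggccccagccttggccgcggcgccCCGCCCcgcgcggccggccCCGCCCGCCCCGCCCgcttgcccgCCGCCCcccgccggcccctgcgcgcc
Setd2: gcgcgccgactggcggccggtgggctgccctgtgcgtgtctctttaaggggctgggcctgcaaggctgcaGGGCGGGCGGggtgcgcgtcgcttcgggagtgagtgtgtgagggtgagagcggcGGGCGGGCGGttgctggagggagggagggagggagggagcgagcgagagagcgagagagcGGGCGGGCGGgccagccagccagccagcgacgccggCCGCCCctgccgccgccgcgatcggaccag
Kdm8: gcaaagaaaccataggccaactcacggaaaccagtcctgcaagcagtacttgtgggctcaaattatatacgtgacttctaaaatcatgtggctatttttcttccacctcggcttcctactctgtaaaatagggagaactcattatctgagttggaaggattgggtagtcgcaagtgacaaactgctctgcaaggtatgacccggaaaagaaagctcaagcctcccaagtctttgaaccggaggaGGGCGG
Prmt2: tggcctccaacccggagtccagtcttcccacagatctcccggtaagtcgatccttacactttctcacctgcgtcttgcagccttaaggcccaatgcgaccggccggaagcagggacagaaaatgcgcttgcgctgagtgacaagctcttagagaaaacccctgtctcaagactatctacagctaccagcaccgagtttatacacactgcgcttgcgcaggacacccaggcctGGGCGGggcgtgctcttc
Kdm4a: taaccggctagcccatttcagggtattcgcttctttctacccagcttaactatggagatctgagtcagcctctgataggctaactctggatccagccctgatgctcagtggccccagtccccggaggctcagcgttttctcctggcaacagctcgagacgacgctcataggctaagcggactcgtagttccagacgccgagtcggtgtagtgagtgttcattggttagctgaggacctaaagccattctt
GC boxes numbered 4 in the *Kmt2a* window, 12 in that of *Kmt2c* and 7 in that of *Setd2*, against 1 for *Kdm8*, 1 for *Prmt2* and 0 for *Kdm4a*. The numbers of CpG were 29, 48 and 31 in the former and 7, 14 and 12 in the latter. Because these windows were picked from the ends of the range, all windows were also counted. RefSeq windows were found for 42 of the 55 members, 55 windows in all, and 67.3% held a GC box, against 32.7% of the 32851 windows of all genes. These 32851 windows were not limited to genes tested here, so they include genes with little or no expression in these cells. The median CpG number was 20, against 6. Among the tested members, 28 of 41 windows (68.3%) of those with both KO libraries above both controls held a GC box, and 7 of 12 (58.3%) of the others. CCAAT, on either strand, stood in 41.8% of member windows and 33.8% of all windows, TATAAA in 3.64% and 12.4%, and TGACGTCA in 3.64% and 1.55%. A match is a run of letters and not a site shown to be bound.

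Among the H3K4 writers, 5 of 8 (62.5%) were higher in both libraries labelled KO than in both controls. An unadjusted p under 0.05 was found in 4 of 8 (50%), and the median log2 difference was 0.96. For this class and those below, the shares over all genes were 38.6% above both controls and 10.7% higher at an unadjusted p under 0.05. Among all genes of 4619 nt and over, 57.5% were above both controls. The longest transcripts of the H3K4 writers had a median of 8663 nt. *Kmt2a*, which encodes the MLL1 methyltransferase, had the largest difference of all members. Its level was 12.4 TPM in control 1, 7.95 in control 2, 40.1 in KO 1 and 35.4 in KO 2. Both KO values lay well above both controls, by 1.82 ± 0.33 on the log2 scale (limma standard error, 2 libraries per group; adjusted p = 0.310). The window of *Kmt2a* printed above is thus that of the member with the highest difference. *Kmt2c*, an MLL3 enzyme that acts mainly at enhancers, had 13.6, 7.68, 30.9 and 32.7 TPM in the same order. The groups did not overlap, with a log2 difference of 1.54 ± 0.37 (limma, adjusted p = 0.310).

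*Setd1a*, the catalytic subunit of a COMPASS complex that deposits much of the promoter H3K4me3, stood at 67.2 TPM in control 1, 53.7 in control 2, 121 in KO 1 and 120.2 in KO 2. The KO libraries were close together and above both controls, by 1.00 ± 0.20 (limma, adjusted p = 0.310). A share of 51.8% of the exon bases of *Setd1a* lies in the annotated gene *Gm49388* on the same strand, so its reads may be shared. *Kmt2b*, a paralogue of *Kmt2a* needed in the germ line, had 67.9, 37.3, 95.4 and 98.1 TPM, again without overlap, with a log2 difference of 0.93 ± 0.34 (limma, adjusted p = 0.343). *Kmt2d* and *Setd1b* had the widest gaps between controls. *Kmt2d*, the MLL4 enhancer methyltransferase, went from 26.0 TPM in control 1 to 4.25 in control 2, with 18.6 in KO 1 and 16.6 in KO 2 in between. *Setd1b*, the partner paralogue of *Setd1a*, had 18.4, 2.15, 11.5 and 10.1 TPM. Both KO means lay between the controls, and the sign of the difference depended on which control was used: without control 2 it was −0.54 for *Kmt2d* and −0.72 for *Setd1b*. The remaining genes of the class were *Kmt2e*, placed here by its Kmt2 symbol although its product is not established as an active H3K4 methyltransferase, with 55.8, 22.1, 70.9 and 72.1 TPM, and *Setd7*, a monomethyltransferase, with 7.11, 1.73, 8.28 and 6.63 TPM; 9.31% of the exon bases of *Kmt2e* overlap *Srpk2*. Without *Kmt2e*, 4 of 7 were above both controls and the median was 0.93. All 8 members of the class were lower in control 2 than in control 1, against 66.0% of all genes, with a median log2 difference of −1.07 between the controls.

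H3K9 writers had a median log2 difference of 0.75, with 5 of 6 above both controls and 3 of 6 at an unadjusted p under 0.05. *Ehmt1*, which encodes the GLP subunit of the H3K9me2 enzyme, was at 19.2 TPM in control 1, 17.5 in control 2, 42.9 in KO 1 and 43.8 in KO 2. The replicates were close within each label, and the difference was 1.20 ± 0.23 (limma, adjusted p = 0.310). Its partner *Ehmt2*, encoding G9a, was the more abundant of the pair at 143, 135, 160 and 151 TPM. The KO values of *Ehmt2* exceeded both controls narrowly, by 0.16 ± 0.17 (limma, adjusted p = 0.675), less than the shift of all genes. With libraries scaled by the median ratio it was −0.16, and the median of all genes was then −0.0044.

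*Setdb1*, an H3K9me3 writer with a role in the silencing of endogenous retroviruses, had 116 TPM in control 1, 96.3 in control 2, 195 in KO 1 and 183 in KO 2. Its groups did not overlap, and the log2 difference was 0.83 ± 0.19 (limma, adjusted p = 0.310). *Setdb2*, its less studied paralogue, had 20.3, 27.1, 43.4 and 36.4 TPM, a difference of 0.74 ± 0.27 (limma, adjusted p = 0.345). The SUV39H enzymes, which write H3K9me3 at pericentric heterochromatin, did not look alike. *Suv39h2*, the testis-enriched form, had 11.4, 18.8, 27.3 and 24.1 TPM, higher in both KO libraries than in either control, with a difference of 0.77 ± 0.35 (limma, adjusted p = 0.396). *Suv39h1* had 29.2 TPM in control 1 and 72.6 in control 2, and both KO values, 66.6 and 48.4, fell between them. In *Suv39h1* the difference of 0.29 ± 0.50 (limma, adjusted p = 0.803) equalled the shift of all genes within its error. The annotated exons of *Suv39h2* share 8.1% of their bases with *Dclre1c*.

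All 5 H3K36 writers were above both controls in both libraries labelled KO, 4 of them at an unadjusted p under 0.05. Their median log2 difference, 1.32, was the highest of the classes. *Setd2*, the main enzyme of H3K36 trimethylation, had 65.5 TPM in control 1, 26.9 in control 2, 104 in KO 1 and 115 in KO 2, with a difference of 1.36 ± 0.47 (limma, adjusted p = 0.331). *Nsd1*, an H3K36 dimethyltransferase, had 36.8, 24.98, 77.7 and 76.2 TPM, with a smaller gap between controls and a difference of 1.32 ± 0.27 (limma, adjusted p = 0.310). *Ash1l*, another H3K36 enzyme of the Trithorax group, had 24.7, 9.46, 42.6 and 44.8 TPM in the same order. The KO libraries of *Ash1l* were nearly equal while the controls differed by a factor of 2.61, which gave 1.45 ± 0.50 (limma, adjusted p = 0.331). *Whsc1*, encoding NSD2, was the most abundant of the class at 98.6, 80.4, 148 and 151 TPM, with a difference of 0.74 ± 0.20 (limma, adjusted p = 0.315). *Whsc1l1*, encoding NSD3, had 29.3, 23.1, 43.6 and 39.0 TPM, without overlap, and a difference of 0.65 ± 0.25 (limma, adjusted p = 0.353). After a correction for transcript length the estimate was −0.084 for *Whsc1l1* and 0.095 for *Whsc1*, against 0.52 for *Nsd1*, 0.68 for *Ash1l* and 0.69 for *Setd2*.

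The H4K20 and H3K79 writers, 4 genes, all lay above both controls in the libraries labelled KO, with a median log2 difference of 0.81 and 3 at an unadjusted p under 0.05. *Setd8*, the H4K20 monomethyltransferase also called KMT5A, had 71.5 TPM in control 1, 47.9 in control 2, 102 in KO 1 and 111 in KO 2, a difference of 0.85 ± 0.26 (limma, adjusted p = 0.320). The enzymes that carry H4K20 on to higher methylation states followed the same order of groups. *Suv420h1* (KMT5B) had 35.0, 29.1, 67.5 and 64.2 TPM, a difference of 1.02 ± 0.21 (limma, adjusted p = 0.310). *Suv420h2* (KMT5C) had 49.0, 51.0, 87.7 and 83.9 TPM, a difference of 0.77 ± 0.18 (limma, adjusted p = 0.310). In both, the replicates of each label were close. *Dot1l*, the H3K79 methyltransferase, was at 66.1 TPM in control 1 and 28.9 in control 2, against 68.8 and 70.2 in the KO libraries. In *Dot1l*, KO 1 and KO 2 were above control 1 by little and control 2 stood below the other libraries, with a difference of 0.65 ± 0.44 (limma, adjusted p = 0.528).

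**Figure D3:**
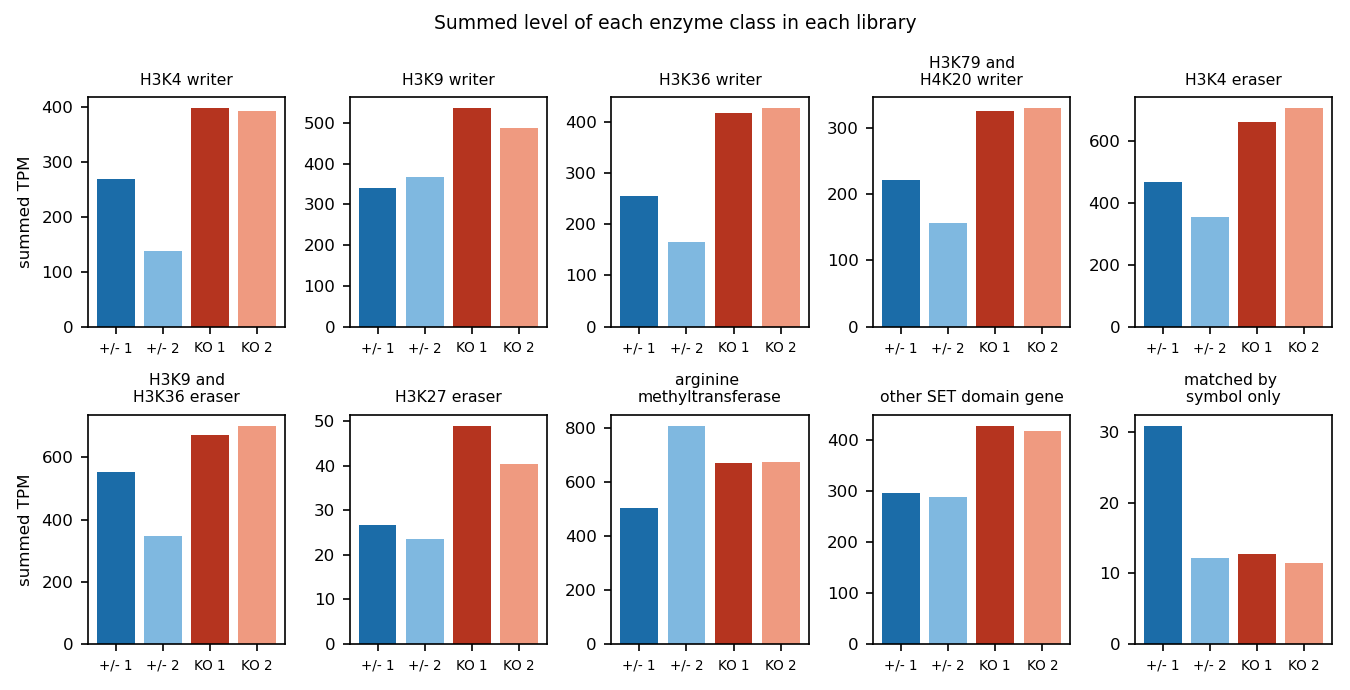
Summed TPM of each enzyme class in each library, 1 bar per library, with a separate axis from zero for each class. For the H3K36 writers the sums were 255, 165, 416 and 426 TPM in the order control 1, control 2, KO 1, KO 2. The arginine methyltransferases, at 501, 807, 671 and 673 TPM, are the only class of histone methylation enzymes in which the summed KO levels lie between those of the controls. *Prmt1* is the largest part of these arginine sums, at 172, 402, 267 and 255 TPM. By gene, 5 of the 8 tested in that class (62.5%, against 38.6% of all genes) lie above both controls.

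Erasers of H3K4 methylation were higher than both controls in 4 of 6 genes, with a median log2 difference of 0.46 and 2 genes at an unadjusted p under 0.05. *Kdm5b*, a Jumonji demethylase of H3K4me3, had the highest level of any member in the KO libraries. It stood at 263 TPM in control 1, 177 in control 2, 368 in KO 1 and 410 in KO 2. The difference was 0.85 ± 0.27 (limma, adjusted p = 0.322), with the KO libraries above both controls. Its paralogue *Kdm5a* had 42.1, 36.9, 86.4 and 86.2 TPM, a difference of 1.11 ± 0.19 (limma, adjusted p = 0.310), and its 2 values within each label were close. *Kdm1a*, the amine oxidase LSD1, had 137, 121, 173 and 183 TPM, a smaller difference of 0.47 ± 0.18 (limma, adjusted p = 0.356). *Kdm1b*, its paralogue with a known role in oocyte imprinting, was lower at 7.3, 9.72, 12.98 and 10.9 TPM. The X- and Y-linked copies *Kdm5c* and *Kdm5d* did not separate the labels. *Kdm5c* had 10.4, 7, 12.02 and 9.82 TPM, and *Kdm5d* 6.24, 1.98, 5.64 and 4.41. Both overlapped between groups. They are homologues, and whether reads were shared between them was not measured here.

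Among erasers of H3K9 and H3K36 methylation, 8 of 10 were above both controls, 4 of 10 had an unadjusted p under 0.05, and the median log2 difference was 0.64. *Kdm3b*, an H3K9 demethylase, had the smallest unadjusted p of all members, 0.0019 with limma. Its levels were 30.1 TPM in control 1, 28.3 in control 2, 76.9 in KO 1 and 73.1 in KO 2, with a difference of 1.33 ± 0.20 (limma, adjusted p = 0.310). Its paralogue *Kdm3a*, known for its role in spermiogenesis, was the most abundant of the class at 217, 130, 238 and 266 TPM. *Kdm3a* was above both controls by a small margin over control 1, with a difference of 0.58 ± 0.31 (limma, adjusted p = 0.438). *Kdm7a*, which acts on H3K9 and H3K27, had 25.3, 13.7, 45.2 and 42.2 TPM, a difference of 1.18 ± 0.37 (limma, adjusted p = 0.320).

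The H3K36 demethylase *Kdm2a* stood at 72.6 TPM in control 1, 43.1 in control 2, 112 in KO 1 and 111 in KO 2, a difference of 0.98 ± 0.31 (limma, adjusted p = 0.320). *Kdm2b*, its paralogue that recruits a Polycomb complex to CpG islands, had 64.3, 43.6, 85.6 and 86.8 TPM. In the Kdm4 genes, whose products act on H3K9me3 and H3K36me3, the patterns were mixed. *Kdm4b* had 17.9, 23.0, 36.7 and 34.9 TPM, a difference of 0.79 ± 0.26 (limma, adjusted p = 0.324). *Kdm4a* and *Kdm4c* differed less, by 0.26 ± 0.30 and 0.42 ± 0.26 (limma, adjusted p = 0.706 and 0.504). *Kdm4a* had 21.26, 15.34, 21.33 and 22.23 TPM, so KO 1 was nearly level with control 1. *Kdm4d*, a germ-cell-enriched member, had 80.2 TPM in control 1 and 28.4 in control 2, with 27.6 in KO 1 and 35.8 in KO 2. Control 1 alone was high in *Kdm4d*; the difference of −0.59 ± 0.55 (limma, adjusted p = 0.635) became 0.14 without it. *Kdm8* stood between 6.14 and 7.21 TPM in all 4 libraries. With median-ratio scaling the estimate was −0.053 for *Kdm4a* and −0.19 for *Kdm8*, beside a median of −0.0044 for all genes.

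Only erasers of H3K27 methylation were matched, since the Ezh writers do not carry these symbols. *Kdm6a* (UTX) had 10.6 TPM in control 1, 10.8 in control 2, 22.1 in KO 1 and 15.6 in KO 2, and *Kdm6b* (JMJD3) had 16.2, 12.7, 26.95 and 24.8. Both were above the controls in both KO libraries. The differences were 0.74 ± 0.33 (limma, adjusted p = 0.389) for *Kdm6a*, in which KO 1 and KO 2 also differed, and 0.81 ± 0.28 (limma, adjusted p = 0.335) for *Kdm6b*.

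Arginine methyltransferases stood closest to the shift of all genes, with a median log2 difference of 0.21, 5 of 8 above both controls and 1 of 8 at an unadjusted p under 0.05. The class median was −0.10 when libraries were scaled by the median ratio and −0.015 after the length correction. The median of all genes moved as well, from 0.28 to −0.0044 and 0.016. *Prmt1*, responsible for most asymmetric arginine dimethylation, had 172 TPM in control 1, 402 in control 2, 267 in KO 1 and 255 in KO 2. The KO values of *Prmt1* fell between controls that differed by a factor of 2.34, and the difference was −0.011 ± 0.45 (limma, adjusted p = 0.992). *Prmt5*, the main symmetric dimethyltransferase, had 88.3, 138, 98.3 and 92.7 TPM, also between the controls, at −0.21 ± 0.28 (limma, adjusted p = 0.741). *Prmt7*, a monomethyltransferase, had 110, 141, 102 and 113 TPM, at −0.22 ± 0.21 (limma, adjusted p = 0.651). Here control 2 was the higher control in 6 of 8 genes, against 33.6% of all genes. The median difference of control 2 from control 1 was 0.45, opposite in sign to that of the H3K4 writers. In the H3K9 writers it was also positive, at 0.15. The longest transcripts had a median of 2998 nt in this class and 8663 nt in the H3K4 writers. *Carm1*, a coactivator methyltransferase of H3R17, had the largest difference of the class. Its levels were 52.6, 31.4, 92.2 and 97.4 TPM, with a difference of 1.20 ± 0.31 (limma, adjusted p = 0.311), and 21.1% of its exon bases overlap *Yipf2* on the opposite strand. *Prmt3*, a ribosomal protein methyltransferase, had 16, 24.96, 34.95 and 34.9 TPM, at 0.77 ± 0.31 (limma, adjusted p = 0.365), while *Prmt10*, *Prmt6* and *Prmt2* differed by 0.31, 0.25 and 0.17, all 3 below zero with median-ratio scaling.

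The 4 remaining SET domain genes were all above both controls, with a median log2 difference of 0.80. *Setd3*, an actin histidine methyltransferase, was abundant at 206, 221, 289 and 280 TPM, a difference of 0.41 ± 0.18 (limma, adjusted p = 0.383). *Setd5* had 52.4, 33.1, 77.7 and 70.5 TPM, a difference of 0.81 ± 0.29 (limma, adjusted p = 0.340), and *Setd6*, a methyltransferase with non-histone substrates, had 26.1, 20.7, 42.1 and 42.8 TPM, a difference of 0.84 ± 0.24 (limma, adjusted p = 0.319). *Setd4* had 10.9, 13.9, 19.8 and 24.5 TPM, a difference of 0.79 ± 0.31 (limma, adjusted p = 0.362). *Nsdhl*, the symbol match outside the family, was high only in control 1, at 31.0 TPM against 12.3 in control 2, 12.8 in KO 1 and 11.5 in KO 2.

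Transcript length moved with these differences. The members' longest transcripts had a median of 5416 nt, against 3168 nt for all genes tested, and 31 of the 54 fell in the longest of 4 equal bins of length (4619 nt and over). From the shortest to the longest bin, the median log2 difference of all genes went from −0.041 through 0.20 and 0.36 to 0.57, and the difference of control 2 from control 1 from 0 through −0.22 and −0.37 to −0.66. In the longest bin, 26 of the 31 members were above both controls, where 57.5% of all genes were. Their median of 0.84 stood beside 0.57 for all genes of that bin. Across the 54 members, which share the same 4 libraries, Spearman's rho between length and the difference by label was 0.59, and between length and the difference of control 2 from control 1 it was −0.57; across all genes with a length the values were 0.37 and −0.24. When each library was corrected for length, 26 members (48.1%) still lay above both controls, against 22.5% of all genes, and 6 (11.1%) lay below, against 21.4%. Of the 24 members with an unadjusted p under 0.05, 20 had a difference over 1.5 times smaller after this correction, and the 24 then ranged from 0.095 for *Whsc1* to 0.97 for *Kmt2a*. Class medians were then 0.52 for H3K36 writers, 0.51 for H4K20 and H3K79 writers, 0.35 for H3K9 writers, 0.32 for H3K4 writers and 0.078 for H3K4 erasers. The median of all genes was then 0.016. The length correction changes values but does not say where the relation with length comes from.

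**Figure D4:**
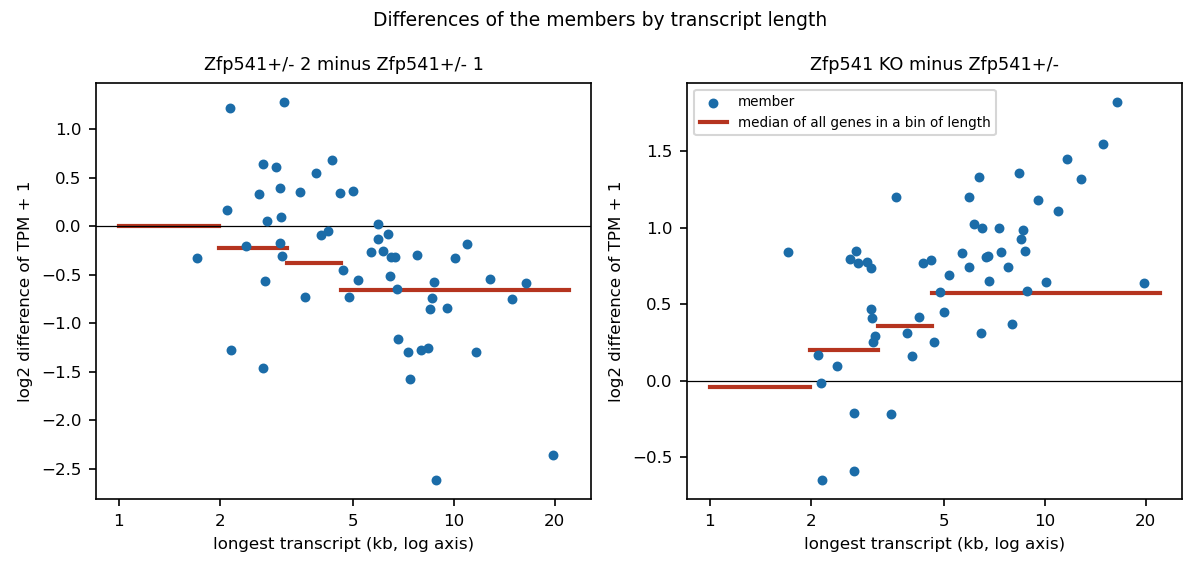
Log2 difference of TPM + 1 against the longest annotated transcript (kb, log axis from 1 kb) for the 54 members tested, between the controls on the left and between the genotype labels on the right. Red lines are medians of all genes in each of 4 bins of length, drawn within the axis; they go from 0 to −0.66 on the left and from −0.041 to 0.57 on the right, and the longer members tend to lie lower on the left and higher on the right.

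A wider list of histone methylation genes whose symbols the rule did not match was counted for comparison. The list held 57 symbols, some of them older or second names of the same genes or of members. Of these symbols, 47 were found and 46 tested. Among those tested, 27 (58.7%, against 38.6% of all genes) were above both controls and 1 (2.17%, against 12.1%) below. At an unadjusted p under 0.05, 11 (23.9%, against 10.7%) were higher, and the median log2 difference was 0.50, beside 0.28 for all genes. The parts of the list differed. Medians were 0.29 for H3K4 complex subunits, 0.29 for PRMT5 partners and −0.10 for KDM1A partners. They were 0.47 for writers and erasers, 0.74 for H3K9 partners and readers, 0.79 for other readers and 1.00 for 2 H3K27 complex subunits. The gene below both controls was *Coprs*, at 331, 389, 272 and 315 TPM. Of the genes named next, *Suz12* and *Zcwpw1* had the largest differences of the list. *Prdm9*, the meiosis-specific writer that places H3K4 and H3K36 methylation at recombination hotspots, had 24.5 TPM in control 1, 36.7 in control 2, 76.3 in KO 1 and 56.4 in KO 2. *Zcwpw1*, a reader of the marks placed by PRDM9, had 151, 308, 539 and 534 TPM. Both were above the controls in both KO libraries, by 1.10 ± 0.31 (limma, adjusted p = 0.315) and 1.31 ± 0.39 (limma, adjusted p = 0.319). *Ezh2*, the H3K27 writer of Polycomb repressive complex 2, had 119, 96.8, 157 and 167 TPM, a difference of 0.59 ± 0.20 (limma, adjusted p = 0.328). *Suz12*, a core subunit of the same complex, had 64.1, 34.9, 129 and 136 TPM, a difference of 1.47 ± 0.34 (limma, adjusted p = 0.310). The eraser *Phf2* was high in control 1 only, at 63.9 TPM against 8.55 in control 2, 11.3 in KO 1 and 11.0 in KO 2. *Prdm9* is also one of the leptotene and zygotene markers, of which 12 of 15 were above both controls. Among 14 pachytene markers, 2 were above and 5 below. The shares over all genes were 38.6% above and 12.1% below.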

How the data were processed

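Total RNA of 4 sorted samples was made into mRNA libraries with a TruSeq kit. The authors trimmed reads with Trim Galore 0.5.0 (cutadapt 1.16), aligned them to mm10 with STAR 2.6.0a and deposited TPM values per gene from RSEM 1.3.1, so counts and depth are unknown and strand use is not given in the sources used here. Here, log2(TPM + 1) was tested, for genes averaging 1 TPM or more over the libraries, with limma 3.58.1 in R 4.3.3 (trend, two-sided, Benjamini-Hochberg over all genes tested), 2 libraries against 2 without a block. The study's RSEM comparison needs estimated counts and was not repeated. Samples were grouped by title. The p-values rest on these 4 samples only. Their spread is pooled over both labels and drawn by limma toward that of genes of similar level. It is therefore not the spread of 1 gene or 1 label alone. Named in full were, in each class, the most abundant member and those with the highest and lowest difference, members with an unadjusted p under 0.05, and a list of well-known enzymes; other members were chosen after their values were seen. Members and gene lists were chosen with earlier results of these data known. Lengths and overlaps came from GENCODE M21, start windows from RefSeq. The 27 genes listed under a date in place of a symbol match no member. The model code was checked on simulated data with 200 changed genes. Noise there was equal in all 4 libraries, so the check does not cover the unequal spread of these groups. Alternatives covered pseudocount, filter, scaling, length, left-out libraries and a replicate block.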

Additional observations from a re-analysis of the deposited data

How the results depend on the processing

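With 2 libraries per group, the design leaves each control with much weight, and without read numbers the precision of low levels is unknown. No member passed the FDR in any alternative that kept all 4 libraries; with 1 library left out, from 0 to 37 did. The 24 members higher at an unadjusted p under 0.05 (10.7% of all genes) became 14 with median-ratio scaling (4.33% of all genes), 8 with length correction (4.11%) and 0 to 38 with 1 library left out (0.41% to 45.4%); lower members (0) became 0 to 4 (0.85% to 19.3%). Members above both controls (42) became 28 with median-ratio scaling (23.1% of all genes), 31 with quantile scaling (27.8%) and 26 with length correction (22.5%), and members below both (0) became 6 with median-ratio scaling (11.1%, against 22.3% of all genes), 2 with quantile scaling (3.7%, against 19.4%), 6 with length correction (11.1%, against 21.4%) and 1 to 5 with 1 library left out (15.6% to 36.03% of all genes). The members' median less that of all genes (0.47) was 0.57 with no filter, 0.20 with length correction and 0.44 to 0.51 with 1 library left out. The cause was not tested.
Without control 1, 37 members (68.5%) and 48.1% of all genes passed the FDR, and without control 2, 29 members (53.7%) and 28.4% did; the lone control is then assumed to vary like the KO libraries.
Replicate numbers came from the titles and nothing ties equal numbers to a shared litter or day. The deviations of same-numbered samples correlated at −0.16. With a replicate block, 15 members (27.8%, against 4.52% of all genes) were higher at an unadjusted p under 0.05 and 0 passed the FDR. A crossed replicate block, chosen after seeing the data, gave 21 members (38.9%, against 8.68% of all genes) higher at an unadjusted p under 0.05. With it, 0 members and 87 genes in all (0.60%) passed the FDR.
Signs turned for *Ehmt2* (−0.16 with median-ratio scaling, −0.19 with length correction), *Suv39h1* (−0.027 with median-ratio scaling) and *Prmt1* (0.034 with quantile scaling), and with length correction for *Kdm5c* (−0.26), *Kdm5d* (−0.29), *Kmt2d* (−0.26), *Setd1b* (−0.10) and *Whsc1l1* (−0.084). With 1 library left out the difference ran from −1.32 to 0.14 for *Kdm4d*, −0.27 to 1.008 for *Kdm5d*, −0.54 to 1.82 for *Kmt2d*, −0.62 to 0.60 for *Prmt1*, −0.53 to 0.11 for *Prmt5*, −0.72 to 1.90 for *Setd1b* and −0.35 to 0.94 for *Suv39h1*. Of the 42 genes named by the rule, 32 kept their sign throughout. The median of all genes itself went from 0.28 to −0.0044 with median-ratio scaling and to 0.016 with length correction.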
